A study of Mus musculus with 6 samples.

Results

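Pdpn, Cd24a and Nrn1 encode 3 small proteins of the cell surface. Podoplanin, the product of Pdpn, is a mucin-type transmembrane glycoprotein that binds the platelet receptor CLEC-2 and, through its cytoplasmic tail, the ezrin, radixin and moesin (ERM) linkers to actin. It is best known as a marker of lymphatic endothelium and of the fibroblastic reticular cells of lymphoid organs, and in mouse T cells it belongs to a set of inhibitory receptors induced by interleukin-27. CD24, the product of Cd24a, is a short, heavily glycosylated protein held in the membrane by a glycosylphosphatidylinositol (GPI) anchor, and it binds Siglec-G in mice and P-selectin. Neuritin, the product of Nrn1, is also GPI-anchored, promotes the outgrowth and survival of neurons, and is expressed by regulatory and anergic T cells.

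These 3 genes, of 24493 in the table, were chosen by their expression values: in each of them the Ifnar1-SA and WT libraries did not overlap. Their levels are therefore given as a description, with no test. The 6 libraries are mRNA-seq of mouse regulatory T (Treg) cells, so named in the labels, made in culture from naive splenic CD4 T cells. Of these, 3 came from Ifnar1-SA cells and 3 from wild-type (WT) cells. The gene Ifnar1 specifies a subunit of the receptor for type I interferons; in the SA allele, as described in the literature, a serine needed for breakdown of the receptor is replaced. The labels give neither age, strain and culture conditions nor a number of animals, and do not say if the 3 libraries of a genotype are separate mice or wells. The spread between libraries may therefore be partly or wholly technical. Levels are in TPM, a share of transcripts corrected for length with the same total in every library, from which depth cannot be read.

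The T cell genes of the label were abundant, but Foxp3, the lineage factor of Treg cells, was not. Cd4 was at 110.5 to 124 TPM in Ifnar1-SA and at 108 to 112 TPM in WT. Below 2 TPM throughout and just without overlap, Foxp3 was at 0.746, 1.82 and 0.759 TPM in Ifnar1-SA libraries 1, 2 and 3, against 0.697, 0.295 and 0.276 TPM in WT libraries 1, 2 and 3. Il2ra, the high-affinity chain of the interleukin-2 receptor and also high in activated T cells, was at 422 to 444 TPM in Ifnar1-SA and at 359 to 428 TPM in WT. The short RNA gene Mir6236 alone took 8.45% to 9.55% of the TPM in Ifnar1-SA and 6.52% to 11.9% in WT. The Y-linked gene Eif2s3y was listed at 0 TPM in WT 3 and at 10.9 to 23.2 TPM in the other 5 libraries. By this gene WT 3 was not made from the same cells as WT 1 and WT 2, so the spread within WT is not wholly technical.

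The coding sequences show what the transcripts of the 3 genes share and where they differ. Serine and threonine codons, which specify the residues that carry mucin-type O-linked sugars, are in capitals, read in frame from the start codon in the principal GENCODE M21 transcripts. Cd24a is printed whole, including its stop codon, and of Pdpn and Nrn1 the first 300 bases are shown.
Pdpn coding sequence: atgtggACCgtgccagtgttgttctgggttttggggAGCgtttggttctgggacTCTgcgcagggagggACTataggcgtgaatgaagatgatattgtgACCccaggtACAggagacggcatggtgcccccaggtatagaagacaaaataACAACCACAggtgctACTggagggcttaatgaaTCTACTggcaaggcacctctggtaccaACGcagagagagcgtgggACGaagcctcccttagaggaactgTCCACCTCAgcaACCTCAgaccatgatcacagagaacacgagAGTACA
Cd24a coding sequence: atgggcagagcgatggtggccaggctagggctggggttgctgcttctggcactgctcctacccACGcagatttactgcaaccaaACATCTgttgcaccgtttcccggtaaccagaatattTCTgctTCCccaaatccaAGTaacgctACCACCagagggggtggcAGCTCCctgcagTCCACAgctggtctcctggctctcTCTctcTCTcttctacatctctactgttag
Nrn1 coding sequence: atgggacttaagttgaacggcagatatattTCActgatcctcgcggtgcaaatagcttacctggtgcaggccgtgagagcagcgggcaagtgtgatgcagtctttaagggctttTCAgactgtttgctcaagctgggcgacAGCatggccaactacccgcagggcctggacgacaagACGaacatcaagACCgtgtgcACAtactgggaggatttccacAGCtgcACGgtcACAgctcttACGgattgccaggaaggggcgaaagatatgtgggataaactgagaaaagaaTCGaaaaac

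The Pdpn transcript has 172 codons before the stop, of which 34 (19.8%) specify serine or threonine. That of Cd24a has 76, of which 14 (18.4%) do, and that of Nrn1 has 142, of which 20 (14.1%) do. The median over 21498 protein-coding genes was 13.2%, and 97.0% of them had a lower share than Pdpn, 94.2% a lower share than Cd24a and 61.97% a lower share than Nrn1. The 2 genes that were higher in Ifnar1-SA were thus also those with the higher share of these codons, which is a description of 3 genes.

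Podoplanin transcripts were present at a moderate level in WT cells and were higher in every Ifnar1-SA library. Pdpn (GRCm38 chromosome 4, 143267431 to 143299564, on the minus strand) measured 19.6, 14.9 and 19.2 TPM in Ifnar1-SA libraries 1, 2 and 3, against 7.39, 8.53 and 6.17 TPM in WT libraries 1, 2 and 3. The lowest Ifnar1-SA library exceeded the highest WT library 1.74-fold. Mean levels were 17.9 ± 2.64 TPM in Ifnar1-SA and 7.36 ± 1.18 TPM in WT (SD, n = 3 each), a 2.43-fold difference. On the log2(TPM + 1) scale, which understates differences of low genes, Ifnar1-SA was 1.18 higher with a standard error of 0.18. Standard errors of log2 differences are those of the limma fit, which draws on the spread of all genes tested. By rank, 82.3% to 85.0% of all genes in the table lay below Pdpn in the Ifnar1-SA libraries and 72.5% to 74.0% in the WT libraries.

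Cd24a had the highest TPM of the 3 genes in every Ifnar1-SA library, and differed between the genotypes by nearly the same factor as Pdpn. Cd24a (chromosome 10, 43578284 to 43584265, plus strand) was at 129.9, 104 and 134 TPM in Ifnar1-SA libraries 1, 2 and 3, against 49.2, 60.4 and 55.5 TPM in WT libraries 1, 2 and 3. The gap between the highest WT library and the lowest Ifnar1-SA library was 43.8 TPM. Mean levels were 122.8 ± 16.3 TPM in Ifnar1-SA and 55.02 ± 5.61 TPM in WT (SD, n = 3 each), a 2.23-fold difference, or 1.14 on the log2(TPM + 1) scale with a standard error of 0.17. The coefficient of variation was 13.3% in Ifnar1-SA and 10.2% in WT.

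Nrn1 went the other way and varied most. Nrn1 (chromosome 13, 36725361 to 36735131, on the minus strand) measured 16.9, 21.8 and 15.1 TPM in Ifnar1-SA libraries 1, 2 and 3, against 35.5, 58.8 and 69.2 TPM in WT libraries 1, 2 and 3. The highest Ifnar1-SA library stayed 13.7 TPM below WT 1, and the WT libraries themselves spanned 1.95-fold. Mean levels were 17.9 ± 3.47 TPM in Ifnar1-SA and 54.5 ± 17.3 TPM in WT (SD, n = 3 each), 3.04-fold lower in Ifnar1-SA. The difference was −1.52 on the log2(TPM + 1) scale with a standard error of 0.27, and −1.79 without WT 1, whose level was the lowest of its genotype. The coefficient of variation was 19.3% in Ifnar1-SA and 31.7% in WT.

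**Figure D1:**
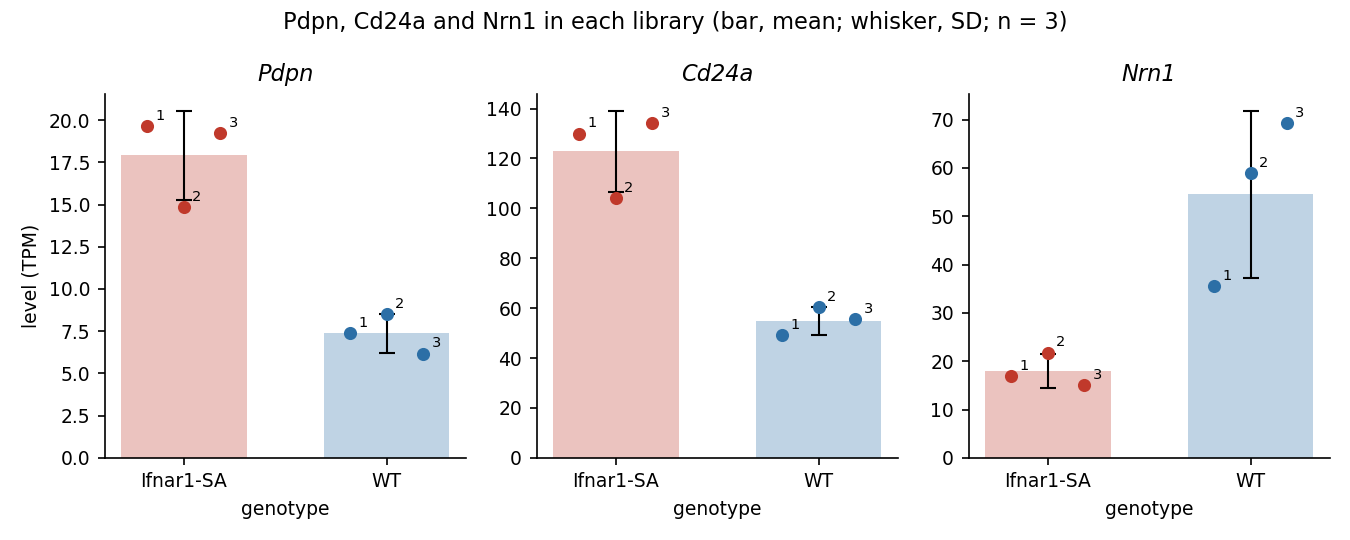
Level in TPM (vertical axis, linear, from 0) of Pdpn, Cd24a and Nrn1 in the Ifnar1-SA and WT libraries. Points are libraries with their replicate number, bars are means and whiskers are SD (n = 3 each); the Ifnar1-SA points lie above all WT points for Pdpn (14.9 to 19.6 against 6.17 to 8.53 TPM) and Cd24a, and below all WT points for Nrn1.

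Of 12141 genes whose mean reached 1 TPM, 239 (1.97%) had Ifnar1-SA libraries that were all higher than the WT libraries, as Pdpn and Cd24a did, and 461 (3.80%) had Ifnar1-SA libraries that were all lower, as Nrn1 did. All 3 genes passed this expression filter. Because the members were picked for this property, nothing is read from their place in these counts. By size of the log2 difference Pdpn and Cd24a were in places 119 and 121 among the genes tested in the higher direction, and Nrn1 was in place 111 in the lower direction. Across all genes tested, limma called 2 genes higher (0.0165%) and 5 lower (0.0412%) in Ifnar1-SA at an adjusted p under 0.05.

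The order of the 3 genes differed between the genotypes. In all 3 WT libraries Pdpn was the lowest, while Cd24a and Nrn1, at 49.2 to 60.4 and 35.5 to 69.2 TPM, overlapped and changed places in WT 3. In all 3 Ifnar1-SA libraries Cd24a was the highest, and Pdpn and Nrn1 overlapped, at 14.9 to 19.6 and 15.1 to 21.8 TPM, with Nrn1 above Pdpn in Ifnar1-SA 2. Since total scaling cancels in a ratio within a library, ratios do not depend on it. The ratio of Cd24a to Nrn1 was 7.69, 4.78 and 8.90 in Ifnar1-SA libraries 1, 2 and 3, against 1.39, 1.03 and 0.802 in WT libraries 1, 2 and 3. Its mean was 6.65-fold higher in Ifnar1-SA (7.12 ± 2.12) than in WT (1.07 ± 0.295). The ratio of Cd24a to Pdpn, by comparison, was 6.61 to 7.01 in Ifnar1-SA and 6.66 to 8.99 in WT, so the libraries overlapped. These ratios also rest on the values that chose the genes.

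**Figure D2:**
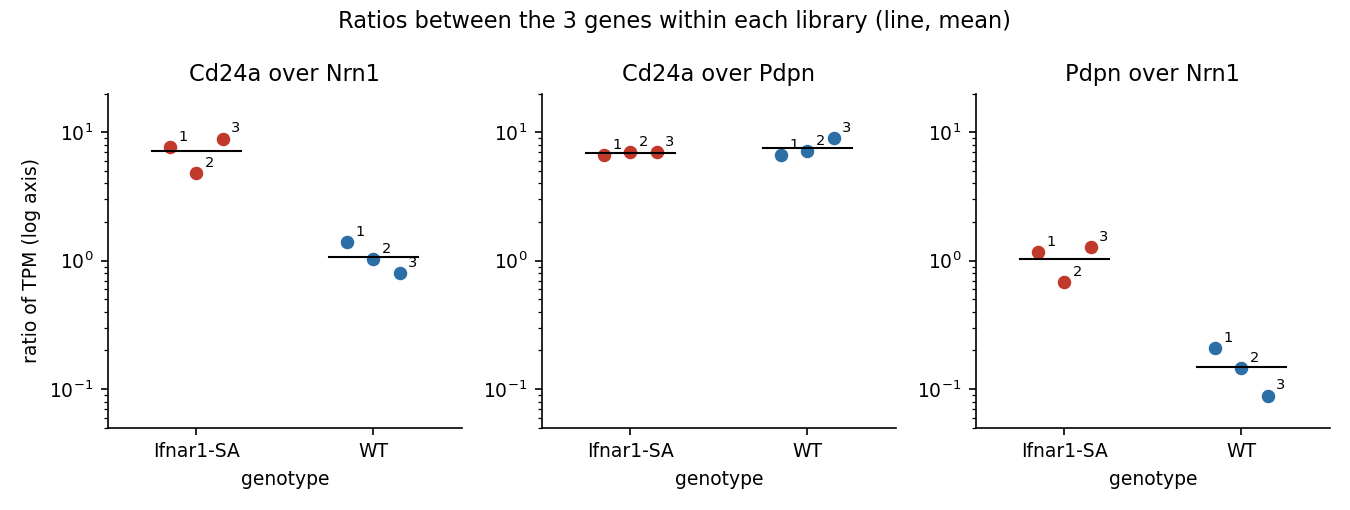
Ratio of TPM between pairs of the 3 genes within each library (vertical axis, log scale), by genotype. Points are libraries with their replicate number and lines are means; Cd24a over Pdpn overlapped between Ifnar1-SA (6.61 to 7.01) and WT (6.66 to 8.99), while the other ratios, both over Nrn1, were higher in every Ifnar1-SA library.

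Gene-level values can include reads from similar or overlapping transcripts, which was checked in GENCODE M21. Pdpn shared no stretch of 100 or more bases at 90% identity with transcripts of another gene. Cd24a shared 259 bases at 92.3% identity with the processed pseudogene Gm15352 and 218 bases at 96.8% with Gm6212. Neither pseudogene was among the gene symbols with TPM values. Nrn1 and Fars2, the gene of mitochondrial phenylalanyl-tRNA synthetase on the opposite strand, overlap by 920 bases, and an Fars2 transcript is complementary to 503 bases of Nrn1 transcripts. Since no source used here says whether strand was kept, reads of Nrn1 and Fars2 cannot be told apart there. Fars2 was at 65.9 ± 2.61 TPM in Ifnar1-SA and 58.2 ± 5.02 TPM in WT, without overlap and in the opposite direction to Nrn1, and did not pass the test (log2 difference 0.18, limma adjusted p = 0.9997).

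The protein-coding genes next to the 3 genes did not pass the test either. Beside Pdpn, Prdm2, a histone methyltransferase gene 54.4 kb away, was at 1.76 ± 0.316 TPM in Ifnar1-SA and 1.84 ± 0.404 TPM in WT, and Lrrc38, 50.2 kb away on the other side, was at most 0.231 TPM in any library. Beside Cd24a, 1700021F05Rik (37.3 kb) was at 28.1 ± 4.92 TPM in Ifnar1-SA and 29.2 ± 2.38 TPM in WT, and Qrsl1 (289.9 kb), which acts in mitochondrial tRNA charging, at 8.97 ± 1.88 and 7.44 ± 1.74 TPM. Beside Nrn1, Lyrm4 (608 kb), an iron-sulfur cluster assembly gene, was at 9.01 ± 1.25 TPM in Ifnar1-SA and 7.98 ± 1.97 TPM in WT, and F13a1 (132.05 kb), a coagulation factor gene, was at most 0.155 TPM. The 4 of these 6 neighbours that passed the filter each had an adjusted p of 0.9997 (limma), and Ifnar1-SA and WT overlapped in all 6.

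The region before the Pdpn start site is shown because, unlike Cd24a and Nrn1, Pdpn had an entry in the promoter table used. It is the 250 bases upstream of the start site in the RefSeq promoter table (GRCm38.p6, chr4:143299565-143299814, minus strand), with the 1 motif match in capitals.
Pdpn promoter: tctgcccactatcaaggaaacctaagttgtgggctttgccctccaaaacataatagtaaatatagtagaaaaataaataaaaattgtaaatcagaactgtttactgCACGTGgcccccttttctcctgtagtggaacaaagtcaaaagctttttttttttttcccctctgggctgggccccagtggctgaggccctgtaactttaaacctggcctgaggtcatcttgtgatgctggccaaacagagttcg
Searched on both strands, it held the E-box CACGTG once, 144 bases before the start site, a motif present in 6.02% of 32851 promoter windows of that length. It held no match to GAAANNGAA, a core of the interferon-stimulated response element (7.13% of windows), to the STAT site TTCNNNGAA (7.02%) or to the AP-1 site TGANTCA (6.75%). Matches describe letters in this window and not binding.

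The partners through which podoplanin acts showed no called difference. Of 12 genes for podoplanin partners and ERM linkage, 9 passed the filter, 0 were called and 0 had an unadjusted p under 0.05, and the median log2 difference was −0.03, against −0.06 over all genes tested. Ezr, which encodes ezrin, was at 122.9 ± 22.3 TPM in Ifnar1-SA and 112 ± 23.05 TPM in WT, and Msn, which encodes moesin, at 69.8 ± 8.87 and 68.1 ± 7.59 TPM. Cd44, the hyaluronan receptor and a podoplanin partner, was at 9.88 ± 2.25 TPM in Ifnar1-SA and 12.01 ± 1.92 TPM in WT. The tetraspanin gene Cd9 was at 26.0 ± 8.79 and 21.3 ± 6.25 TPM, and the galectin gene Lgals8 at 4.41 ± 0.681 and 4.39 ± 0.363 TPM. Clec1b, the gene of CLEC-2, was at most 0.678 TPM in any library. The kinase gene Rock1, with Cd44 the member of smallest p, was at 13.3 ± 1.33 TPM in Ifnar1-SA and 15.02 ± 2.20 TPM in WT (limma unadjusted p = 0.356, adjusted p = 0.9997).

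Several genes of the interleukin-27 co-inhibitory module to which Pdpn belongs were higher in Ifnar1-SA by unadjusted p, although 0 of 14 were called over all genes. Of the 14, 5 were higher at an unadjusted p under 0.05 and 0 lower, against 1.44% higher and 1.68% lower among all genes tested, and the median log2 difference was 0.45. These 5 were Havcr2, Lag3, Tigit, Ctla4 and Il10, genes of inhibitory receptors and of an anti-inflammatory cytokine. Havcr2, which encodes TIM-3, was at 9.56, 13.98 and 12.6 TPM in Ifnar1-SA libraries 1, 2 and 3, against 12.0, 3.85 and 3.54 TPM in WT libraries 1, 2 and 3. Its genotypes overlapped through WT 1, whereas those of the other 4 did not overlap. Among all genes tested, 1.97% had every Ifnar1-SA library above every WT library. The log2 differences were 0.97 for Havcr2, 0.72 for Il10, 0.52 for Lag3, 0.50 for Ctla4 and 0.46 for Tigit, each with a limma adjusted p of 0.9997. The count of 5 was 2 without WT 2, WT 3, Ifnar1-SA 2 or Ifnar1-SA 3, 2 without WT 2 and Ifnar1-SA 1 together, and 3 without Ifnar1-SA 1 or with median-of-ratios scaling.

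The module's regulators and its receptor did not show that pattern. Il27ra, the interleukin-27 receptor gene, was at 21.8 ± 7.15 TPM in Ifnar1-SA and 22.9 ± 5.83 TPM in WT. Prdm1 and Maf, transcription factor genes that drive the module in mouse T cells, were at 5.62 ± 0.902 and 14.04 ± 4.28 TPM in Ifnar1-SA, against 4.10 ± 2.15 and 12.9 ± 4.33 TPM in WT. Procr, the protein C receptor gene that is induced together with Pdpn, was at 3.29 ± 1.57 TPM in Ifnar1-SA and 2.65 ± 0.729 TPM in WT, and Pdcd1, the gene of PD-1, at 60.3 ± 8.01 and 40.3 ± 18.5 TPM. All of these overlapped between Ifnar1-SA and WT and had an adjusted p of 0.9997 (limma). Pdcd1 and Prdm1 overlapped only through WT 1, as Havcr2 did, with log2 differences of 0.65 and 0.44. That of Pdcd1 was larger than those of Lag3, Ctla4 and Tigit. The log2 differences were 0.18 for Procr, 0.12 for Maf and −0.09 for Il27ra.

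Receptors for CD24 and for the signals it restrains were mostly near the floor. Of 11 listed genes 5 passed the filter and 0 were called, with a median log2 difference of −0.12. Siglecg, the gene of the mouse CD24 receptor, was at 0.567 ± 0.0170 TPM in Ifnar1-SA and 0.618 ± 0.05299 TPM in WT. Selp, which encodes P-selectin, was at 0.911, 0.437 and 0.513 TPM in Ifnar1-SA libraries 1, 2 and 3, against 1.07, 2.22 and 2.59 TPM in WT libraries 1, 2 and 3, without overlap but close together between Ifnar1-SA 1 and WT 1 (unadjusted p = 0.0153, adjusted p = 0.9997, limma). It was the only one of the 5 lower at an unadjusted p under 0.05, against 1.68% of all genes tested. Hmgb1, a nuclear protein and danger signal bound by CD24, was at 331 ± 49.9 TPM in Ifnar1-SA and 317 ± 106 TPM in WT. The phosphatase genes Ptpn6 and Ptpn11, which act downstream of Siglecs, were at 99.01 ± 26.05 and 6.89 ± 1.25 TPM in Ifnar1-SA, against 104 ± 11.4 and 7.58 ± 1.37 TPM in WT.

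Genes connected with neuritin showed no called difference, and most of the relatives and partners were near the floor. Of 8 relatives and partners 2 passed the filter, Insr at 5.23 ± 1.48 TPM in Ifnar1-SA and 6.80 ± 2.55 TPM in WT, and Notch1 at 7.31 ± 1.92 and 6.48 ± 1.06 TPM, and neither was called. Nrn1l, a close relative, and Gria1, a glutamate receptor gene, were at most 0.395 and 0.570 TPM in any library. Among 13 anergy and tolerance genes, a state in which Nrn1 is expressed, 11 passed the filter, 0 were called and 0 had an unadjusted p under 0.05, with a median log2 difference of −0.06. Izumo1r, the gene of folate receptor 4 and a Treg and anergy marker, was at 487 ± 89.3 TPM in Ifnar1-SA and 462.5 ± 86.5 TPM in WT. Egr2 and Egr3, transcription factor genes of anergy, were at 20.96 ± 2.74 and 2.06 ± 1.10 TPM in Ifnar1-SA, against 22.4 ± 2.57 and 1.85 ± 1.08 TPM in WT. Nt5e, which encodes CD73, and Rnf128, a ubiquitin ligase gene of anergy, were under the filter, with Rnf128 at 0.581 ± 0.199 TPM in Ifnar1-SA and 1.14 ± 0.254 TPM in WT. Rnf128 was lower in every Ifnar1-SA library (0.438 to 0.808 TPM) than in any WT library (0.913 to 1.41 TPM), the direction of Nrn1, and was not tested. The 2 smallest unadjusted p in this list were 0.203 for Ndrg1 and 0.215 for Itch (limma adjusted p = 0.9997).

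Cd24a and Nrn1 share the GPI anchor, and no gene of the enzymes that build it was called. Of 27 assembly genes 26 were found, 24 passed the filter and 0 were called, with 0 at an unadjusted p under 0.05 and a median log2 difference of 0.0034. Piga, which starts the pathway, was at 4.71 ± 0.714 TPM in Ifnar1-SA and 5.13 ± 0.927 TPM in WT. Pigk and Gpaa1, subunits of the transamidase that attaches the anchor, were at 6.03 ± 1.12 and 44.8 ± 11.5 TPM in Ifnar1-SA, against 5.56 ± 1.13 and 39.2 ± 7.14 TPM in WT. Pigt, another subunit, and Pigm had the 2 smallest unadjusted p, 0.272 and 0.289 (limma adjusted p = 0.9997).

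Among 23 genes of other GPI-anchored surface proteins, 17 passed the filter and 0 were called. By unadjusted p under 0.05, 4 were higher and 0 lower, against 1.44% higher and 1.68% lower among all genes tested, and the median log2 difference was 0.21, against −0.06 over all genes tested. The 4 were Bst2, Ly6a, Ly6c1 and Ly6e, all known as interferon-inducible, with log2 differences of 1.04, 0.64, 0.71 and 0.53 and limma adjusted p of 0.747 for Bst2 and 0.9997 for the others. The Ly6 genes form a family of similar sequences, so reads may have been divided among them. The count was 2 without WT 2 or Ifnar1-SA 3, 1 with median-of-ratios scaling, and 2 with quantile normalization or with no filter. Thy1, the Thy-1 antigen gene, was at 61.6 ± 13.2 TPM in Ifnar1-SA and 45.2 ± 8.88 TPM in WT, Cd48 at 149 ± 20.96 and 153 ± 15.5 TPM, Cd52 at 4178 ± 842 and 3404 ± 837 TPM, the prion protein gene Prnp at 103 ± 20.9 and 109.8 ± 30.7 TPM and Plaur, the urokinase receptor gene, at 3.92 ± 1.11 and 4.02 ± 0.357 TPM, all with overlap between Ifnar1-SA and WT.

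Genes of mucin-type glycoproteins and of the O-linked sugars carried by podoplanin and CD24 were likewise not called. Of 13 genes 10 passed the filter, 1 was higher at an unadjusted p under 0.05, against 1.44% of all genes tested, and the median log2 difference was 0.0044. That gene was Spn, which encodes the T cell sialomucin CD43, at 22.8 ± 1.96 TPM in Ifnar1-SA and 17.7 ± 1.74 TPM in WT, without overlap (unadjusted p = 0.0497, adjusted p = 0.9997, limma). Selplg, the gene of the P-selectin ligand PSGL-1, was at 122.8 ± 22.6 TPM in Ifnar1-SA and 120.1 ± 17.4 TPM in WT. The sialyltransferase gene St3gal1 was at 18.3 ± 3.46 and 23.9 ± 9.54 TPM, St6galnac6 at 9.64 ± 1.96 and 6.92 ± 1.32 TPM, and C1galt1, which builds the core O-glycan, was under the filter. Over all lists together, 91 of 119 genes passed the filter and 0 were called.

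**Figure D3:**
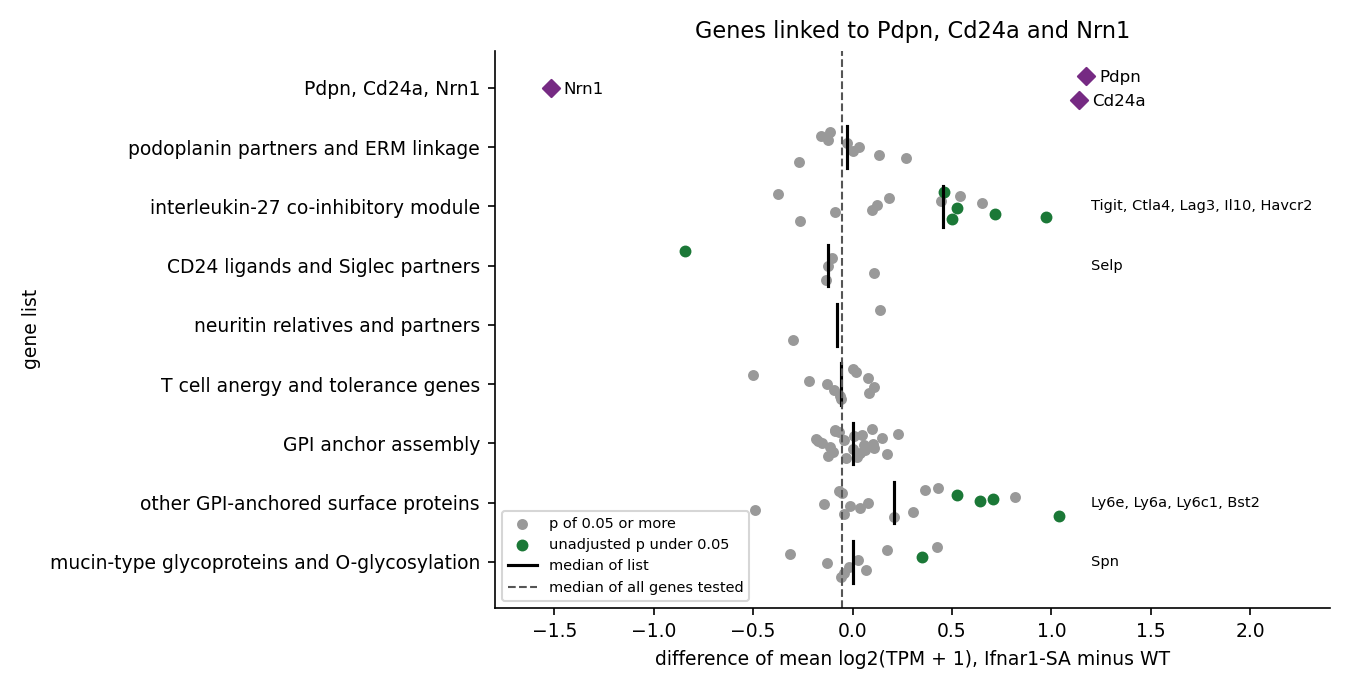
Difference of mean log2(TPM + 1), Ifnar1-SA minus WT (horizontal axis), for Pdpn, Cd24a and Nrn1 (diamonds, 1.18, 1.14 and −1.52) and for the tested genes of 8 lists (points; green where the unadjusted limma p was under 0.05, named at the right edge from low to high difference). Vertical bars are list medians and the dashed line is the median of all genes tested; only the interleukin-27 module and the GPI-anchored surface proteins have medians above 0.1, and most listed genes lie nearer to 0 than the 3 genes.

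The genes with the most similar pattern differed between Pdpn and Cd24a on the one side and Nrn1 on the other. Likeness was measured over the 6 libraries as the root mean square difference between log2(TPM + 1) values centred on their mean, among 7204 genes whose mean reached 5 TPM, predicted gene models left out. Pdpn and Cd24a were each other's nearest gene, at 0.12. For Pdpn the next were Glrx (0.16), which encodes glutaredoxin, Oas3 (0.18), Bst2 (0.19) and Trim30a (0.19). Of these, at least Oas3 and Bst2 are antiviral interferon targets. For Cd24a the next were Ly6g (0.19), Ifi27 (0.20), Isg20 (0.21) and Trim30a (0.21), of which at least Ifi27 and Isg20 are interferon-induced. Oas3, for example, was at 19.6, 13.4 and 23.9 TPM in Ifnar1-SA libraries 1, 2 and 3, against 9.50, 10.8 and 7.57 TPM in WT libraries 1, 2 and 3.

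Nrn1 had no gene as close. Its nearest was Klf7 (0.25), a Krüppel-like transcription factor gene, followed by Epor (0.38), the erythropoietin receptor gene, Ltb (0.39), the gene of lymphotoxin beta, Tgm1 (0.42), a transglutaminase gene, and Mir6973a (0.43), a microRNA gene whose TPM rests on a very short transcript. Klf7 was at 13.1, 12.9 and 10.7 TPM in Ifnar1-SA libraries 1, 2 and 3, against 18.5, 29.99 and 33.5 TPM in WT libraries 1, 2 and 3. Like Nrn1 it was lowest within WT in library 1. Ltb, Tgm1 and Mir6973a overlapped between Ifnar1-SA and WT. With 6 libraries and a difference between genotypes in each chosen gene, likeness largely restates that difference and is given as a description.

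**Figure D4:**
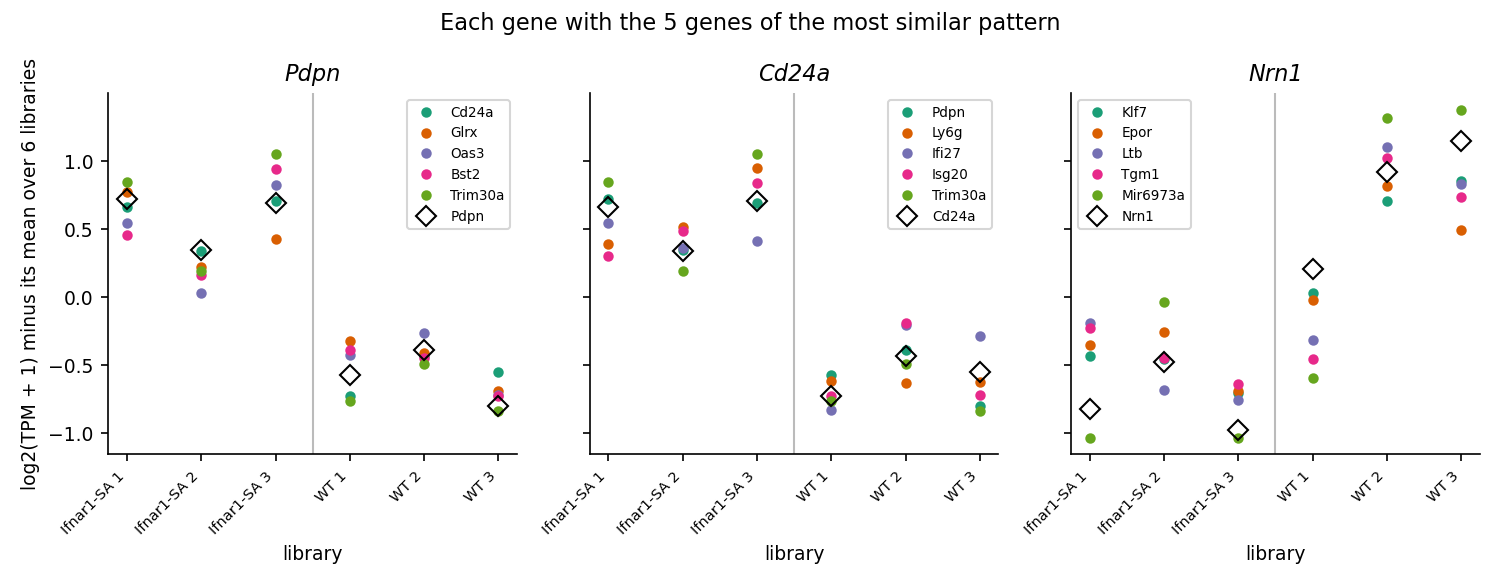
Centred log2(TPM + 1) values (vertical axis) by library for Pdpn, Cd24a and Nrn1 (open diamonds) and the 5 genes of the most similar pattern to each (coloured points), with Ifnar1-SA left of the grey line and WT right of it. Points lie close to the diamonds for Pdpn and Cd24a (root mean square difference 0.12 to 0.21) and farther from them for Nrn1 (0.25 to 0.43).

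Markers of other cell types known to express these genes were low. In bulk libraries, fewer cells of a type and less RNA per cell cannot be told apart. Of 14 stromal and endothelial markers, which bear on Pdpn, 11 stayed under 1 TPM in all libraries, and their sum was 4.69 to 6.63 TPM in Ifnar1-SA and 4.39 to 9.23 TPM in WT, with Prox1, the lymphatic factor, at most 0.130 TPM. The 7 B cell markers found, which bear on Cd24a, summed to 5.65 to 10.6 TPM in Ifnar1-SA and 5.72 to 13.6 TPM in WT. The 11 dendritic cell and macrophage markers summed to 4.403 to 6.18 TPM in Ifnar1-SA and 3.78 to 7.96 TPM in WT, and the 10 erythroid and platelet markers to 2.22 to 2.65 and 1.497 to 3.10 TPM, with 1 of them, Hbb-bs, listed at 0 throughout. Each of these sums overlapped between Ifnar1-SA and WT. Pecam1, the only stromal and endothelial marker that passed the filter, gave 2.28 to 3.14 TPM of their sum in Ifnar1-SA and 3.04 to 4.53 TPM in WT. Pdpn itself, at 6.17 to 8.53 TPM in WT, lay above the stromal and endothelial sum of the same library in WT 1 and WT 3. It lay below that sum in WT 2. In Ifnar1-SA, at 14.9 to 19.6 TPM, Pdpn lay above the sum of 4.69 to 6.63 TPM. The part of these markers in the results was not tested. The 7 neuronal markers summed to 11.6 to 23.8 TPM in Ifnar1-SA and 16.6 to 21.1 TPM in WT, mostly through Gap43.

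Of the neutrophil markers, which also bear on Cd24a, only Ly6g separated Ifnar1-SA from WT. The sum of 8 markers was 17.2 to 22.6 TPM in Ifnar1-SA and 7.46 to 11.2 TPM in WT, and 6 of them stayed under 1 TPM in all libraries. Ly6g, a neutrophil antigen gene of the Ly6 family, accounted for 14.2, 15.6 and 21.4 TPM in Ifnar1-SA libraries 1, 2 and 3, against 6.55, 6.46 and 6.52 TPM in WT libraries 1, 2 and 3. Without Ly6g, the sum of the other 7 markers was 3.04, 2.47 and 1.28 TPM in Ifnar1-SA libraries 1, 2 and 3, against 0.906, 4.76 and 3.51 TPM in WT libraries 1, 2 and 3, with overlap. Most of it came from S100a9, a calprotectin subunit gene, at 2.11, 1.73 and 0.891 TPM in Ifnar1-SA libraries 1, 2 and 3, against 0.615, 2.74 and 2.87 TPM in WT libraries 1, 2 and 3. S100a8, the gene of the other calprotectin subunit, was listed at 0 in all 3 Ifnar1-SA libraries and in WT 1, and was at 0.504 and 0.120 TPM in WT 2 and WT 3. The part of neutrophil transcripts in the Cd24a difference was not tested.

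The direction of each difference held under every setting tried. Because the genes were chosen for non-overlap, leaving out libraries or changing the pseudocount could not reverse it. With WT 3 left out, the 1 library without Eif2s3y transcripts, the log2 differences were 1.07 for Pdpn, 1.15 for Cd24a and −1.32 for Nrn1. With WT 2 and Ifnar1-SA 1 left out together they were 1.21, 1.16 and −1.40.

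**Figure D5:**
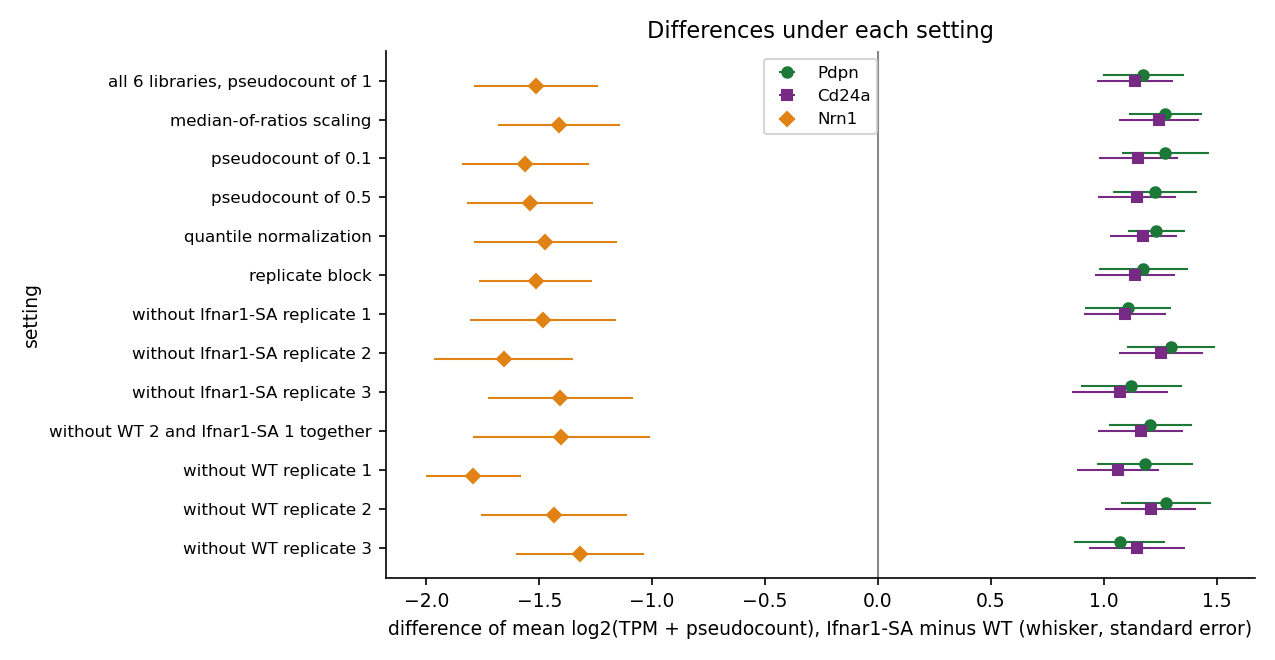
Difference of mean log2(TPM + pseudocount), Ifnar1-SA minus WT (horizontal axis), for Pdpn (circles), Cd24a (squares) and Nrn1 (diamonds) with all libraries and under each other setting (rows). Whiskers are standard errors from the limma fit. Values run from 1.07 to 1.30 for Pdpn, 1.06 to 1.25 for Cd24a and −1.79 to −1.32 for Nrn1.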

How the data were processed

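Expression was measured by mRNA sequencing of 6 libraries, 3 per genotype. The authors deposited 1 table of TPM per gene symbol, made with Salmon for build mm10 (GRCm38), per the submitters' processing notes. For the version of Salmon, the annotation, the strand setting and the transcript-to-gene step, the entry is: not given in the sources used here. Sequencing depth is unknown from TPM, so no counting interval is given.

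TPM values were tested as log2(TPM + 1) for genes whose mean reached 1 TPM, with limma 3.58.1 (intensity trend, R 4.3.3), two-sided, adjusted by Benjamini-Hochberg over all genes tested, threshold 0.05. The 3 members, the gene lists and the tests were chosen with earlier results of these data known, including that several listed genes were higher in Ifnar1-SA, so the list counts are not independent support. P-values set the difference between genotypes against the spread between libraries. That spread may be partly or, within Ifnar1-SA, wholly technical. The procedure was tested on simulated data.

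Genes named besides the members were those marked key in each list, in pathway lists also every gene past the threshold or else the 2 of smallest p, the 5 most similar patterns per member and the nearest protein-coding neighbours. Fars2, Eif2s3y, Mir6236, Gap43, Hbb-bs, Pecam1, S100a9 and the genes of unadjusted p under 0.05 beyond that rule were named after their values were seen. Positions are from GENCODE M21 (GRCm38), matched by symbol, for 3 of 3 members. Coding sequences come from its principal transcripts, and 1 of 3 members had a promoter in the RefSeq table. Alternatives were pseudocounts of 0.1 and 0.5, no filter or a 5 TPM minimum, median-of-ratios and quantile scaling, no trend, robust empirical Bayes, a replicate block, and leaving out libraries. Python 3.11.15, pandas 2.3.3, numpy 2.4.6 and matplotlib 3.10.9 were used.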

Additional observations from a re-analysis of the deposited data

How the results depend on the processing

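The log2 differences of Pdpn, Cd24a and Nrn1 kept their direction and moved by less than the spread between replicates in all 12 alternatives each. Where libraries were left out or the pseudocount changed, the direction was fixed beforehand by the choice of non-overlapping genes. Leaving out 1 library at a time gave 1.07 to 1.30 for Pdpn, 1.06 to 1.25 for Cd24a and −1.79 to −1.32 for Nrn1. The other settings gave 1.18 to 1.27, 1.14 to 1.24 and −1.56 to −1.40. Pathway genes called numbered 0 in all 16 alternatives. The count of 7 genes called over the whole table was 15 with a pseudocount of 0.1, 14 with 0.5, 12 with robust empirical Bayes, 1 with a mean of at least 5 TPM, 0 without WT 2 and Ifnar1-SA 1 together (366 at an unadjusted p under 0.05), and 15 to 28 when 1 library was left out. The cause was not tested. With a replicate block it was 0 (399 at an unadjusted p under 0.05), while the 3 differences were the same, at 1.18, 1.14 and −1.52. In this balanced design the block cannot change the differences. Deviations from the genotype mean correlated across genes at −0.11, −0.11 and 0.15 between Ifnar1-SA and WT libraries of the same number. Between Ifnar1-SA 1 and WT 2 the correlation was 0.25. Genes are not independent replicates, and deviations from a mean of 3 libraries constrain one another. Whether the replicate numbers pair the libraries therefore cannot be told from these values. The interleukin-27 count of 5 ranged from 2 to 7 and the GPI-anchored count of 4 from 1 to 4 over the alternatives, which for these counts were chosen after seeing the data. TPM keeps no depth, so levels near the floor, such as those of Selp, Clec1b and Siglecg, have an unknown counting error.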
